A study of Mus musculus with 24 samples.

Results

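The 34 genes described here encode parts of the autophagosome and of the lysosome, the compartments in which a muscle cell takes up and digests its own proteins and organelles. They were chosen by gene symbol from a list of names drawn up with earlier results of these data known, and comprise 20 autophagosome genes, 12 lysosome genes, and 2 transcription factors that act on both. All 34 were found in the table of 56941 genes, and all 34 were among the 13318 genes expressed highly enough to be tested. RNA was sequenced from 24 engineered 2D muscle tissues, grown from C2C12 cells, an established mouse myoblast line that fuses into contractile fibers in culture. The cells of every group, control included, had the genotype ChR2::tdTomato, a blue light-gated ion channel joined to a red fluorescent protein, and all tissues were differentiated in horse serum with insulin-like growth factor 1 on a fibrin gel. Light pulses drove contraction for 30 min per day at 1, 4, or 10 Hz, while control tissues received no light stimulation. Each of the 4 groups held 6 tissues. The study describes the tissues as biological replicates in wells of the same cell line, so p-values measure the spread between wells, and it reports that tissues also twitched spontaneously, so that control tissue may not have been fully at rest.

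Autophagy begins when the ULK kinase complex and the PI3-kinase complex around Becn1 and Atg14 start a membrane at which WIPI proteins dock. Conjugation enzymes then attach ubiquitin-like proteins of the Atg8 family to the growing membrane, receptors such as Sqstm1 (p62) hold the cargo against it, and the closed autophagosome fuses with a lysosome, whose acid hydrolases digest the content. In skeletal muscle this route clears damaged mitochondria and aggregated proteins, and the transcription factors Tfeb and Tfe3 are known to switch on genes of both compartments in fasting and exercise. RNA levels are not a measure of autophagic flux, and several of these proteins are themselves degraded by autophagy.

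Libraries held 4.09 to 15.2 M (mega) counts in total, with a median of 5.32 M in control against 7.38, 8.66, and 7.83 M at 1, 4, and 10 Hz. A technical measure that moved with the groups was the small RNA share, the counts of 23 listed RNAs without a poly(A) tail, such as Rn7sk, per M of the library total. It averaged 131 in control, 30.1 at 1 Hz, 27.6 at 4 Hz, and 125 at 10 Hz, with SDs of 23, 21, 12.5, and 86.4 over the 6 libraries of each group. Libraries at 1 and 4 Hz all lay below those of control (2-sided exact permutation p = 0.00216 for each, the smallest that 6 against 6 libraries can give, and 0.00648 after Benjamini-Hochberg (BH) adjustment), whereas the exact permutation p at 10 Hz was 0.874. The labels describe poly(A) selection, with ribodepletion of low-input samples that they do not name. Since the share did not overlap with control at 1 and 4 Hz, it and the stimulation cannot be told apart in those comparisons, and its part in the results was not tested. The 12 muscle fiber markers summed to 8250 ± 675 TPM in control and to 13000 ± 1600, 13700 ± 2060, and 9750 ± 1690 TPM at 1, 4, and 10 Hz (SD, n = 6 each). Of the 12, 9 rose at 1 Hz, 9 at 4 Hz, and 2 at 10 Hz. Of all genes tested, 18.1%, 19.2%, and 2.67% rose at 1, 4, and 10 Hz. The 6 markers of myoblasts and cycling cells summed to 52.4, 42, 36.1, and 47.5 TPM and the 4 fibroblast markers to 37.7, 36.8, 25.7, and 32 TPM on average in control and at 1, 4, and 10 Hz. The fibroblast sum was mostly Dcn, with 32.5 TPM in control and 18.8 TPM at 4 Hz. Pdgfra (4.75 and 5.69 TPM) and Dpt (0.383 and 1.16 TPM) had a higher mean TPM at 4 Hz, and Lum was near 0 throughout. Only Dcn and Pdgfra were tested on counts. Dcn fell at 4 Hz (log2 fold change -0.593), and Pdgfra did not pass there (0.0148). The falling myoblast sum was carried by Cdk1 and Myf5, which fell at 4 Hz, whereas Pax7, Mki67, and Top2a rose there (log2 fold change 1.04, 1.28, and 0.69). Macrophages are rich in lysosomes, and of the 6 macrophage markers the defining Ptprc was at 0 counts in 23 of 24 libraries and Adgre1 in 22, while Cd14 had group means of 11 to 17.2 TPM. The 6 together summed to 18.8, 16.7, 12.1, and 14.2 TPM on average in control and at 1, 4, and 10 Hz, and the 4 Hz libraries (10.3 to 13.8 TPM) did not overlap with control (14.4 to 22.8 TPM). Both macrophage markers that were tested, Cd14 and Csf1r, fell at 4 Hz (-0.47, adjusted p = 0.00678, and -1.33, adjusted p = 0.0195). Lyz2 went the other way, from 0.603 TPM in control to 0.791 TPM at 4 Hz. The cultures were seeded with C2C12 cells, and Ptprc and Adgre1 held 1 and 2 counts in total over all libraries. The marker sum is thus given as RNA and not as a number of macrophages, and the part of its shift in the results was not tested. In bulk RNA, fewer C2C12 cells in a given state and less RNA per cell cannot be told apart.

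The lysosome genes ranged from some of the most abundant transcripts of the tissue to moderate ones. TPM (transcripts per M of all transcripts, a unit that corrects for transcript length and so allows genes to be compared) averaged over the 24 libraries placed Ctsl first at 1650, a level above that of 99.2% of the genes tested, followed by Ctsd at 1060. Sqstm1 was the highest autophagosome gene at 834 TPM, and Ctsb and Psap came next at 616 and 592 TPM. The Atg8 family members Gabarap and Map1lc3a (LC3A) averaged 477 and 372 TPM, and Map1lc3b (LC3B), Gabarapl1, and Gabarapl2 averaged 199, 141, and 116 TPM. The genes for their conjugation were much lower, from 44.9 TPM for Atg12 down to 7.84 TPM for Atg7, the lowest of the 34. Among lysosome genes Gaa and Npc1 were low, at 32.6 and 20.1 TPM. Tfe3 averaged 30 TPM and Tfeb 14 TPM.

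**Figure D1:**
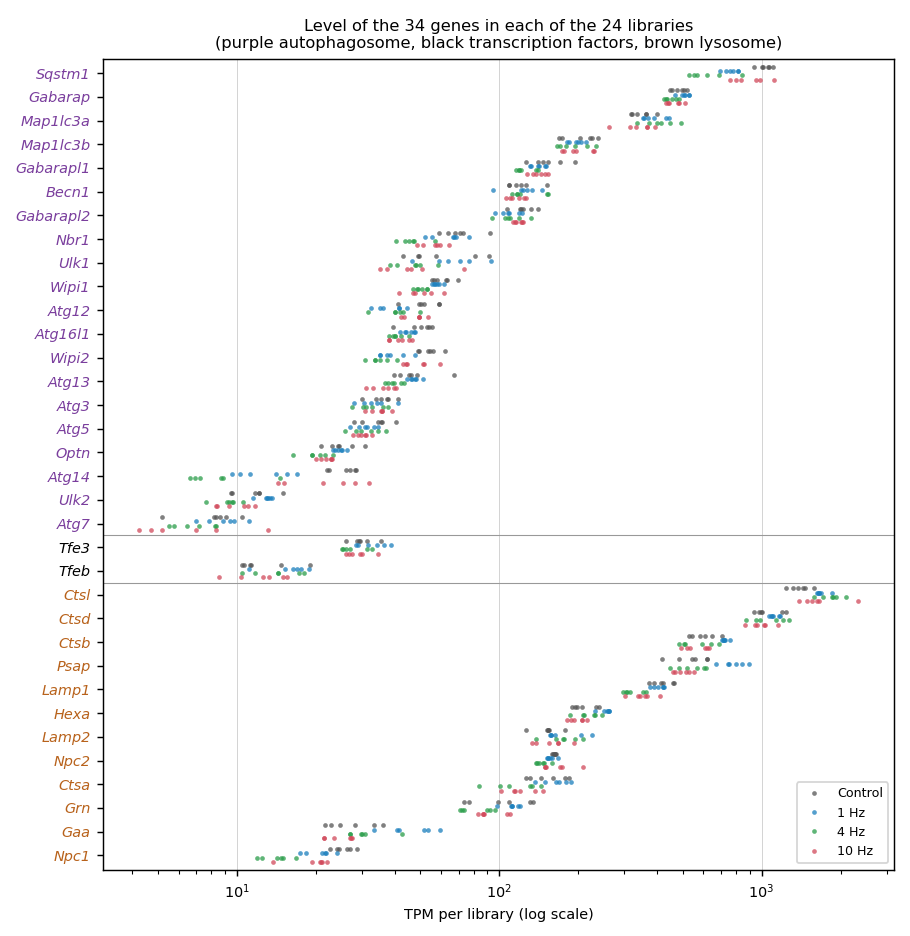
Level of each of the 34 genes in TPM (log axis), with 1 point per library, colored by group, and gene names colored by class. Levels run from 7.84 TPM (Atg7) to 1650 TPM (Ctsl) as means over 24 libraries, and the spread between libraries of a gene is small beside the distance between genes, while the points of Atg14 at 1 and 4 Hz lie left of all its control points.

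Summed over each class, the levels of the 2 compartments followed different orders of the groups. The 20 autophagosome genes summed to 3010 ± 127 TPM in control, 2720 ± 68.5 TPM at 1 Hz, 2460 ± 208 TPM at 4 Hz, and 2750 ± 159 TPM at 10 Hz (SD, n = 6 each). All 12 libraries at 1 and 4 Hz lay below the lowest control library, which stood at 2880 TPM, and so did 5 of the 6 libraries at 10 Hz, replicate 1 being above it at 3055 TPM. In log2(TPM + 1), the median difference from control over 13627 genes was -0.06, -0.164, and -0.0905 at 1, 4, and 10 Hz. Over the 20 autophagosome genes the median was -0.0804, -0.27, and -0.168. The sums were thus lower on a scale that was lower for the median gene as well. The 12 lysosome genes summed to 4860 ± 464 TPM in control, 5660 ± 151 TPM at 1 Hz, 5130 ± 529 TPM at 4 Hz, and 4880 ± 540 TPM at 10 Hz (SD, n = 6 each), and every stimulated group overlapped with control. Sqstm1 alone made up 1030 TPM of the control sum, 764 TPM of that at 1 Hz, 634 TPM at 4 Hz, and 909 TPM at 10 Hz, so that most of the difference from control at 1 and 4 Hz lay in 1 gene, whereas the 5 Atg8 family genes summed to 1320 ± 88 TPM in control and 1290 ± 90.1 TPM at 4 Hz.

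**Figure D2:**
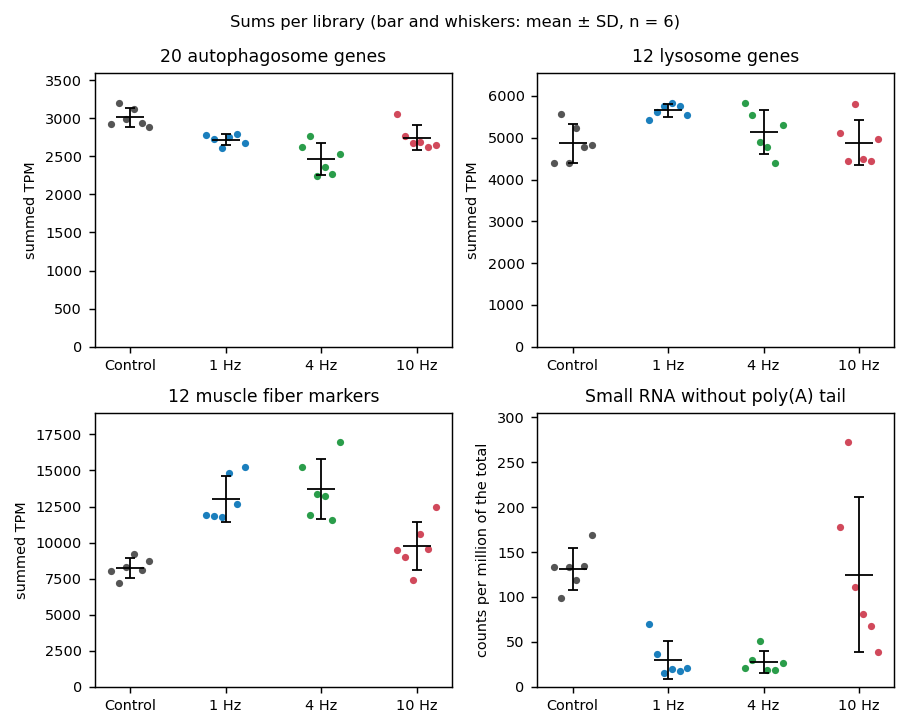
Sums per library of the 20 autophagosome genes, the 12 lysosome genes, and 12 muscle fiber markers in TPM, and of small RNAs without a poly(A) tail in counts per M of the library total, with 1 point per library and the mean ± SD of 6 libraries. Autophagosome sums fall from 3010 TPM in control to 2460 TPM at 4 Hz, lysosome sums are highest at 1 Hz (5660 TPM), and the small RNA share is low at 1 and 4 Hz with no overlap with control.

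Single genes were compared on counts with edgeR's quasi-likelihood test in 1 fit of all 24 libraries and 13318 genes. A gene is said to have risen or fallen where its BH adjusted p over all genes was below 0.05, and is counted as upregulated or downregulated where its log2 fold change was also beyond 0.5 in size. The 3 frequencies were each compared with the same 6 control libraries. At 1 Hz, 10 of the 34 genes passed the adjusted p, or 29.4%, where 35.4% of all genes tested did (18.1% higher and 17.3% lower). At 4 Hz 13 genes passed, or 38.2%, where 39.4% of all genes did (19.2% higher and 20.2% lower), and at 10 Hz 4 genes passed, or 11.8%, where 4.89% of all genes did (2.67% higher and 2.22% lower). The stimulated and control libraries did not overlap for 6 members at 1 Hz (17.6%, background 13.1%), 6 at 4 Hz (17.6%, background 16.6%), and 3 at 10 Hz (8.82%, background 2.58%). With the fold threshold, 3 members were counted at 1 Hz (background 18.3%), 2 at 4 Hz (background 20.1%), and 0 at 10 Hz (background 1.86%). The shares of members that passed were thus close to or below those of the transcriptome at 1 and 4 Hz, and most members that moved did so by less than the fold threshold.

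Of the 20 autophagosome genes, 4 fell at 1 Hz, 0 rose, and 16 did not pass, with a median log2 fold change of -0.0356. The 20% that fell were close to the 17.3% of all genes that did. Of the 12 lysosome genes, 4 rose, 0 fell, and 8 did not pass, with a median of 0.20, and both transcription factors rose. The 4 lysosome genes were 33.3% of the 12, where 18.1% of all genes rose. The median over all genes tested was -0.00723. At 4 Hz, 6 autophagosome genes fell, 1 rose, and 13 did not pass (median -0.10), whereas 4 lysosome genes rose, 2 fell, and 6 did not pass (median 0.12, against -0.0144 over all genes). Of all genes, 19.2% rose and 20.2% fell at 4 Hz. At 10 Hz, 2 autophagosome genes fell and 18 did not pass (median -0.0627), while 1 lysosome gene rose, 1 fell, and 10 did not pass (median -0.0118, against -0.00644). Of all genes, 2.67% rose and 2.22% fell at 10 Hz. At the unadjusted level, 6 of the 20 autophagosome and 5 of the 12 lysosome genes had p below 0.05 at 10 Hz. The share of all genes with an unadjusted p below 0.05 was not computed, so these numbers have no background. DESeq2 also counted 0 members of either class at 10 Hz. All 4 calls at 10 Hz were lost when the 12 libraries concerned were fitted alone, with adjusted p between 0.0638 and 0.0963 for Nbr1, Npc1, Atg13, and Ctsl, and all 4 were lost without a filter on low counts (adjusted p from 0.0591 to 0.206). By limma on TPM, 1 to 3 members passed at 10 Hz. With the small RNA share as a covariate, 0 members passed at 1 Hz and Npc1 alone at 4 Hz, while the same number as before, 4, passed at 10 Hz.

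**Figure D3:**
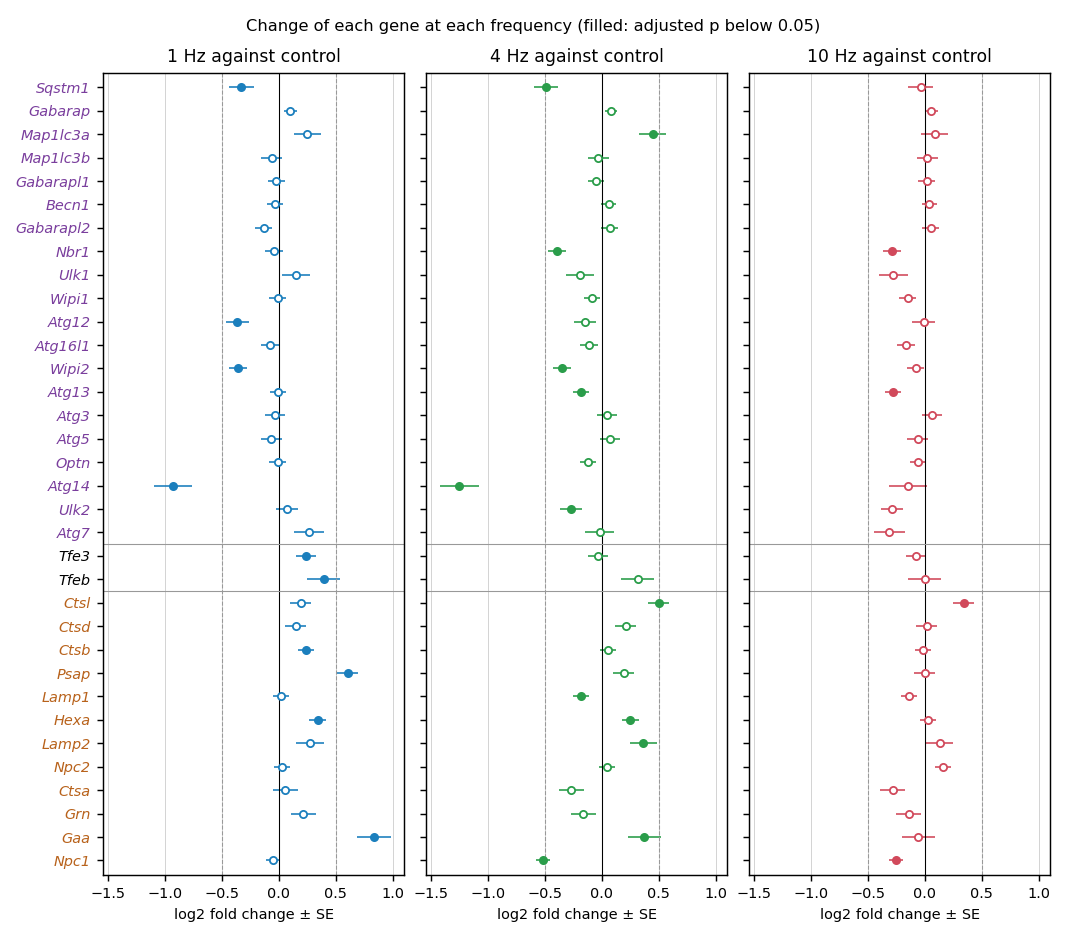
Log2 fold change ± SE of each of the 34 genes at 1, 4, and 10 Hz against the same control libraries, filled where the BH adjusted p of edgeR's quasi-likelihood test was below 0.05, with dashed lines at a log2 fold change of 0.5 in either direction. Atg14 lies farthest to the left at 1 Hz (-0.93) and 4 Hz (-1.25) and near 0 at 10 Hz (-0.15), and Gaa (0.83) and Psap (0.60) lie farthest to the right at 1 Hz.

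Scaling bears on the direction of small changes. The counts were scaled by TMM, which left the median gene near 0. When libraries were scaled by their total count instead, the median over all genes moved to -0.0849 at 1 Hz and -0.111 at 4 Hz, and the share of counted genes that were higher was 37.1% in place of 51% at 1 Hz and 35.7% in place of 52.2% at 4 Hz. By limma on log2(TPM + 1) this share was 41.5%, 24.5%, and 31.2% at 1, 4, and 10 Hz, against 66.5% at 10 Hz with TMM. The median of the lysosome genes at 4 Hz was 0.0220 under total count scaling and -0.0433 on log2(TPM + 1). The sign of the lysosome median at 4 Hz thus depended on the scaling. Of the 34 genes, 5 rose and 8 fell at 4 Hz with TMM, 2 rose and 12 fell with total count scaling, and 1 rose and 14 fell by limma on log2(TPM + 1).

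Among the genes that start an autophagosome, Atg14 fell the most of all 34. It encodes the subunit that directs the PI3-kinase complex to autophagy, and the gene lies on chromosome 14 (GRCm39, 47778235 to 47808106, minus strand) with 10 exons in its canonical transcript. Levels of single genes across libraries are given in CPM (counts per M of the library size after TMM scaling). In control, Atg14 had a lowest, median, and highest level of 46.2, 49.6, and 57 CPM. At 1 Hz the corresponding levels were 23.3, 24, and 33.1 CPM, and at 4 Hz they were 15.6, 19.7, and 31.6 CPM. Every one of the 12 libraries at 1 and 4 Hz lay below every control library. At 10 Hz the levels were 27.6, 45.5, and 60 CPM, which spanned the whole range from the 1 Hz libraries to above control. Atg14 was downregulated at 1 Hz, with a log2 fold change of -0.93 ± 0.17 (SE, adjusted p = 0.000189) and at 4 Hz, with -1.25 ± 0.171 (SE, adjusted p = 4.53e-06), and did not pass at 10 Hz (-0.15 ± 0.165, adjusted p = 0.658). The 10 Hz libraries were spread widely. Replicates 1 to 6 had Atg14 levels of 59.1, 60, 53.4, 37.7, 36.1, and 27.6 CPM. Their small RNA share was 178, 272, 111, 81.3, 67.3, and 38.4 in the same order, so that the 3 libraries with the highest share were also the 3 with the highest Atg14. Both measures were highest in replicate 2 and fell from there to replicate 6, so the share and the replicate order cannot be told apart. The match was seen after the values were known and was not tested. With this share as a covariate, Atg14 had a log2 fold change of -0.29 ± 0.233 at 1 Hz (adjusted p = 0.722) and -0.62 ± 0.231 at 4 Hz (adjusted p = 0.157), a fit in which 1 gene of the 13318 was counted at 1 Hz and 250 at 4 Hz.

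The other 6 initiation genes changed less. Wipi2, a PI3P-binding protein that recruits the conjugation machinery, fell at 1 Hz (-0.36 ± 0.0762, adjusted p = 0.000716) and at 4 Hz (-0.35 ± 0.0759, adjusted p = 0.00071). It had 108 to 123 CPM in control, 81.1 to 99.6 CPM at 1 Hz, and 82 to 97.6 CPM at 4 Hz, again without overlap. Its homolog Wipi1 did not pass at any frequency, with log2 fold changes between -0.15 and -0.0119. Of the 3 genes of the ULK complex, Atg13, its scaffold, fell at 4 Hz (-0.18, adjusted p = 0.0395) and 10 Hz (-0.28, adjusted p = 0.0199), and the kinase Ulk2 fell at 4 Hz (-0.27, adjusted p = 0.0286) and had -0.29 at 10 Hz without passing (adjusted p = 0.0843). Fitted on the 12 libraries alone, neither call at 4 Hz held (adjusted p = 0.0953 for Atg13 and 0.0613 for Ulk2). Ulk1, the better known kinase, varied widely within control, from 127 to 219 CPM, and did not pass at any frequency. Becn1, the partner of Atg14 in the PI3-kinase complex, stayed within -0.0344 and 0.0589 on the log2 scale, with 95% intervals that lay between -0.168 and 0.192. Atg14 and Becn1, which act in 1 complex, therefore gave unequal fold changes at 1 and 4 Hz.

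Among the conjugation genes, 1 of 5 passed against control. Atg3, Atg5, Atg7, and Atg16l1 did not pass at any frequency, with log2 fold changes from -0.31 (Atg7 at 10 Hz) to 0.26 (Atg7 at 1 Hz). Atg12, a ubiquitin-like protein joined to Atg5, fell at 1 Hz (-0.37 ± 0.101, adjusted p = 0.00638), from 127 to 196 CPM in control to 108 to 144 CPM, and 3 of the 6 libraries lay below all control libraries. It had -0.15 at 4 Hz and -0.0124 at 10 Hz. Of the 5 Atg8 family genes, which mark the autophagosome membrane, only Map1lc3a passed a test against control. Map1lc3a had a lowest, median, and highest level of 152, 174, and 201 CPM in control and 188, 229, and 304 CPM at 4 Hz, where 5 of 6 libraries exceeded every control library (0.45 ± 0.118, adjusted p = 0.00396). On log2(TPM + 1) this rise was 0.22 with an adjusted p of 0.0911 by limma. Map1lc3b, Gabarap, Gabarapl1, and Gabarapl2 had log2 fold changes between -0.13 and 0.098 over the 3 frequencies.

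Of the 3 cargo receptors, 2 fell at 4 Hz. Sqstm1, which binds ubiquitinated cargo and is itself consumed by autophagy, had 1120, 1240, and 1410 CPM as the lowest, median, and highest control value. The corresponding values were 866, 1000, and 1050 CPM at 1 Hz, 697, 859, and 1110 CPM at 4 Hz, and 997, 1180, and 1560 CPM at 10 Hz. All libraries at 1 Hz and at 4 Hz lay below all control libraries, and those at 10 Hz overlapped with them. Sqstm1 fell by 0.33 on the log2 scale at 1 Hz (SE 0.107, adjusted p = 0.0183, but 0.0533 without a filter on low counts) and by 0.49 at 4 Hz (SE 0.107, adjusted p = 0.000768), and had -0.0379 at 10 Hz (adjusted p = 0.892). The 6 libraries at 10 Hz held 1560, 1350, 1190, 1170, 1010, and 997 CPM in replicate order, and with the small RNA share as a covariate the log2 fold change of Sqstm1 was -0.0569 at 1 Hz (adjusted p = 0.946) and -0.22 at 4 Hz (adjusted p = 0.536). Nbr1, a related receptor for ubiquitinated cargo and peroxisomes, followed another order. Its lowest, median, and highest level was 170, 187, and 231 CPM in control, 162, 194, and 201 CPM at 1 Hz, 125, 146, and 170 CPM at 4 Hz, and 151, 158, and 163 CPM at 10 Hz. Control and 1 Hz overlapped, whereas every library at 4 and 10 Hz lay below the lowest control library, which rounds to the same 170 CPM as the highest library at 4 Hz. Nbr1 fell at 4 Hz (-0.39 ± 0.08, adjusted p = 0.000402) and at 10 Hz (-0.29 ± 0.08, adjusted p = 0.0354), and had -0.0426 at 1 Hz (adjusted p = 0.707). The call at 10 Hz was lost without replicate 1 or 2 of control (adjusted p = 0.0685 and 0.134) and without replicate 2, 4, 5, or 6 at 10 Hz. Optn, a receptor for mitochondria and bacteria, did not pass at any frequency.

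Both transcription factors rose at 1 Hz. Tfeb had a lowest, median, and highest level of 14.9, 16.3, and 23.6 CPM in control and 17.4, 24.3, and 27 CPM at 1 Hz (log2 fold change 0.39 ± 0.145, adjusted p = 0.036), and Tfe3 had 44.6, 54.3, and 60.3 CPM in control and 56.9, 61.6, and 72.1 CPM at 1 Hz (0.24 ± 0.089, adjusted p = 0.0377). In each case 3 of 6 libraries exceeded every control library and the groups overlapped. Under total count scaling the adjusted p was 0.0955 for Tfeb and 0.16 for Tfe3, so that neither call held. At 4 Hz Tfeb had 0.31 (adjusted p = 0.084) and Tfe3 -0.0341, and at 10 Hz they had -0.00404 and -0.0777, none of which passed. The activity of these factors is set mainly by their entry into the nucleus, which RNA does not report.

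Among the proteins inside the lysosome, Psap, Gaa, Hexa, and Ctsb rose at 1 Hz. Psap, on chromosome 10 (GRCm39, 60113431 to 60138380, plus strand), encodes prosaposin, the precursor of the saposins, which present sphingolipids to lysosomal enzymes. It had a lowest, median, and highest level of 740, 938, and 1060 CPM in control and 1180, 1410, and 1630 CPM at 1 Hz. The 1 Hz libraries lay above all control libraries. Psap was upregulated at 1 Hz, its log2 fold change being 0.60 ± 0.0947 (SE, adjusted p = 4.19e-05). At 4 Hz it had 851, 1040, and 1240 CPM (0.19, adjusted p = 0.114), and at 10 Hz 876, 905, and 998 CPM (-0.00348, adjusted p = 0.991), both overlapping with control. Gaa, on chromosome 11 (GRCm39, 119158708 to 119176525, plus strand), encodes acid alpha-glucosidase, which breaks down glycogen in the lysosome and is lost in Pompe disease of muscle. It rose from 49.6, 59.4, and 79.4 CPM in control to 76.7, 106, and 142 CPM at 1 Hz, where 5 of 6 libraries exceeded every control library. Its log2 fold change was 0.83 ± 0.146 at 1 Hz (SE, adjusted p = 0.00012), the largest rise among the 34 genes. At 4 Hz Gaa had 66.7, 74.1, and 113 CPM (0.37 ± 0.145, adjusted p = 0.0428), a rise that rested on single libraries. Without replicate 6, the library with 113 CPM, it was 0.26 with an adjusted p of 0.146, and it also missed the threshold without replicate 1 or 4 at 4 Hz or without replicate 1, 3, 5, or 6 of control. At 10 Hz it had 48.2, 60.5, and 66.7 CPM (-0.059, adjusted p = 0.873). With the small RNA share as a covariate, the changes at 1 Hz were 0.43 for Psap (adjusted p = 0.259) and 0.55 for Gaa (adjusted p = 0.378). Hexa, the alpha subunit of the hexosaminidase lost in Tay-Sachs disease, rose at 1 Hz (0.34 ± 0.0734, adjusted p = 0.000873, 6 of 6 libraries above all control libraries) and at 4 Hz (0.25 ± 0.0733, adjusted p = 0.00862, 5 of 6 libraries), although at 4 Hz total count scaling gave 0.15 with an adjusted p of 0.101.

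The cathepsins, the main lysosomal proteases, each had their own order of groups. Ctsl, the most abundant of the 34 genes, had a lowest, median, and highest level of 1130, 1180, and 1260 CPM in control, 1210, 1340, and 1540 CPM at 1 Hz, 1510, 1650, and 1830 CPM at 4 Hz, and 1300, 1400, and 2130 CPM at 10 Hz. The libraries at 4 and 10 Hz lay above all control libraries, and those at 1 Hz overlapped with them. Ctsl rose at 4 Hz (0.50 ± 0.0936, adjusted p = 0.000184), just short of the fold threshold at 0.4961, and at 10 Hz (0.34 ± 0.0935, adjusted p = 0.0326), and had 0.19 at 1 Hz (adjusted p = 0.114). The library of replicate 3 held the 2130 CPM at 10 Hz, and without it the change there was 0.21 (adjusted p = 0.0689). The 10 Hz call was also lost without replicate 2, 3, 4, or 5 of control. Ctsb rose at 1 Hz, from 864, 978, and 1020 CPM in control to 1090, 1140, and 1180 CPM, with no overlap (0.24 ± 0.0691, adjusted p = 0.00939, but 0.0779 under total count scaling). It overlapped with control at 4 Hz (871, 980, and 1160 CPM, 0.0509, adjusted p = 0.585) and at 10 Hz (862, 969, and 1020 CPM, -0.0201, adjusted p = 0.912). Ctsd, an aspartic protease with 1200, 1350, and 1560 CPM in control, did not pass at any frequency. It had 1450, 1520, and 1650 CPM at 1 Hz (0.15, adjusted p = 0.216), 1260, 1590, and 1940 CPM at 4 Hz (0.21, adjusted p = 0.0751), and 1190, 1400, and 1650 CPM at 10 Hz (0.0164, adjusted p = 0.947). Ctsa, which also protects other lysosomal enzymes, did not pass against control, with -0.27 at 4 Hz (adjusted p = 0.0514) and -0.28 at 10 Hz (adjusted p = 0.128).

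Of the 3 membrane proteins of the lysosome, 2 fell and 1 rose at 4 Hz. Npc1, which moves cholesterol out of the lysosome, had a lowest, median, and highest level of 66, 73.9, and 75.6 CPM in control and 66.2, 68.1, and 76.8 CPM at 1 Hz. At 4 Hz the 6 libraries lay within 48.6 to 52.5 CPM with a median of 49.9 CPM, and at 10 Hz within 53.5 to 64.2 CPM with a median of 61.3 CPM. Every library at 4 and 10 Hz lay below every control library. Npc1 was downregulated at 4 Hz, its log2 fold change being -0.52 ± 0.0622 (SE, adjusted p = 9.73e-07), the smallest adjusted p among the 34 genes, fell at 10 Hz (-0.25 ± 0.062, adjusted p = 0.0181), and had -0.0488 at 1 Hz (adjusted p = 0.566). The call at 10 Hz was lost without replicate 2 of control (adjusted p = 0.0633) or replicate 4 at 10 Hz (adjusted p = 0.053). With the small RNA share as a covariate, its change at 4 Hz was -0.51 ± 0.1 (adjusted p = 0.0111), in a fit that counted 250 genes there. The share did not overlap between 4 Hz and control, so this fit cannot tell the share and the stimulation apart. Npc2, the soluble partner that hands cholesterol to Npc1, had log2 fold changes of 0.0239, 0.0411, and 0.15 at 1, 4, and 10 Hz and did not pass. Lamp1 fell at 4 Hz (-0.18 ± 0.0677, adjusted p = 0.0319) whereas Lamp2, the related membrane glycoprotein that is lost in Danon disease of muscle, rose (0.36 ± 0.12, adjusted p = 0.0175), with 4 of 6 libraries on the far side of all control libraries in each case. The rise of Lamp2 had an adjusted p of 0.0624 under total count scaling, and the fall of Lamp1 had 0.0673 when the 12 libraries were fitted alone. Grn, the precursor of the granulins, did not pass against control.

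**Figure D4:**
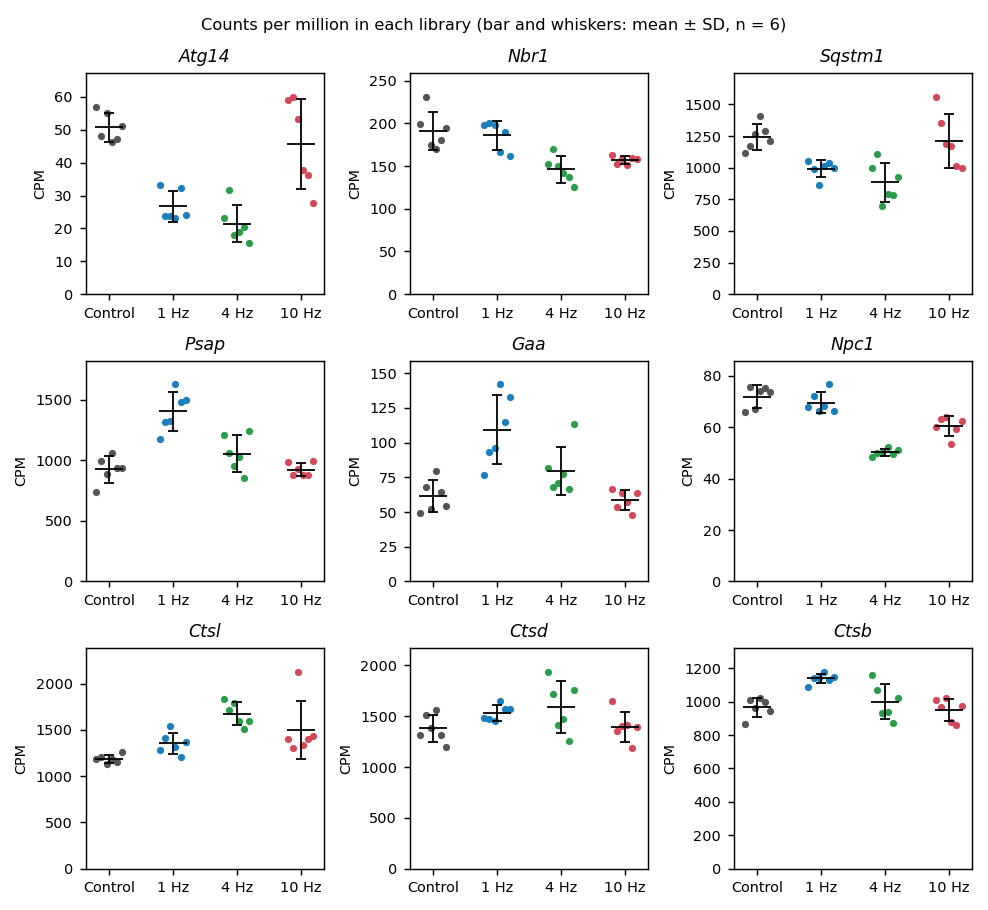
CPM (axis from 0) of the 9 genes given in full, with 1 point per library and the mean ± SD of 6 libraries. Atg14 and Sqstm1 are low at 1 and 4 Hz and scattered at 10 Hz, Psap and Gaa are high at 1 Hz, Npc1 is lowest and least scattered at 4 Hz (50.3 ± 1.36 CPM), and 1 library at 10 Hz holds 2130 CPM of Ctsl.

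Libraries of different frequencies were also compared with each other in the same fit. Between 4 and 1 Hz, 10 of the 34 genes passed (29.4%, background 12.3%, of which 5.71% higher and 6.56% lower at 4 Hz), and 0 were beyond the fold threshold by edgeR or by DESeq2 (background 3%). The unadjusted p was below 0.05 for 16 of the 34, a level for which no background was computed. Of the 10 that passed, 7 were lysosome genes, of which Ctsl was higher at 4 Hz (0.31, adjusted p = 0.0327) and 6 were lower, led by Npc1 (-0.47 ± 0.0619, adjusted p = 3.19e-05, no overlap), Gaa (-0.46, adjusted p = 0.034), and Psap (-0.41, adjusted p = 0.00536). Between 10 and 1 Hz, 18 genes passed (52.9%, background 36.3%, of which 17.7% higher and 18.5% lower at 10 Hz) and 4 were counted (11.8%, background 17.9%). These were Atg14, higher at 10 Hz (0.78 ± 0.169, adjusted p = 0.000801), and Gaa (-0.89 ± 0.144, adjusted p = 4.25e-05), Psap (-0.60 ± 0.0947, adjusted p = 2.97e-05), and the E1-like enzyme Atg7 (-0.57 ± 0.129, adjusted p = 0.00121), lower at 10 Hz. All 7 lysosome genes that passed were lower at 10 Hz, and so were both transcription factors, Tfeb by -0.40 and Tfe3 by -0.32. Between 10 and 4 Hz, 7 genes passed (20.6%, background 22.8%, of which 10.9% higher and 11.9% lower at 10 Hz) and Atg14 alone was counted (1.10 ± 0.169, adjusted p = 0.00013, 5 of 6 libraries above all 4 Hz libraries, background 11%). Sqstm1 (0.45 ± 0.107, adjusted p = 0.00386), Wipi2 (0.27, adjusted p = 0.0123), and Npc1 (0.27, adjusted p = 0.00351) were also higher at 10 Hz, and Map1lc3a, Hexa, and Gaa were lower. These comparisons between frequencies with 10 Hz are those in which the small RNA share also differed (exact permutation p = 0.00866 against 1 Hz and 0.00433 against 4 Hz), whereas it did not differ by that test between 4 and 1 Hz (exact permutation p = 0.807).

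Tfeb and Tfe3 bind the letters CACGTG, the core of the CLEAR element, to which a preceding GT is often added. Promoters were searched for it in the 250 bases before the annotated start of each gene's canonical transcript (GRCm39, GENCODE M39), where CACGTG, which reads the same on both strands, occurred in 7.66% of 13292 tested genes. It occurred in 3 of the 12 lysosome genes (Lamp1, Ctsd, and Gaa), in 1 of the 20 autophagosome genes (Gabarap), and in neither transcription factor. The longer GTCACGTG, searched on both strands, occurred in 2.43% of the same genes and, among the 34, in Ctsd. The 100 bases before the start of these 4 genes are shown in the direction of transcription, with CACGTG in capitals, since they are the members whose windows hold the element of the 2 transcription factors.
Gabarap (chr11:69881788-69881887, plus strand): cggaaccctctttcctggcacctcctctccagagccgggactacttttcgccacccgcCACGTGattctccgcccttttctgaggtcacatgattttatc
Lamp1 (chr8:13209021-13209120, plus strand): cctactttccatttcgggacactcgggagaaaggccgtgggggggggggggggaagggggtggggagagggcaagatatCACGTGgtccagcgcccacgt
Ctsd (chr7:141941776-141941875, minus strand): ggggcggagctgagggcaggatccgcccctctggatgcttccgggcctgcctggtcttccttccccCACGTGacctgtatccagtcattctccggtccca
Gaa (chr11:119158613-119158712, plus strand): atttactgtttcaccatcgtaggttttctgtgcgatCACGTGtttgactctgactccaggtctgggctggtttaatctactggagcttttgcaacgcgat
The element began 42, 21, 34, and 64 bases before the start in Gabarap, Lamp1, Ctsd, and Gaa. Of these 4 genes Gaa rose at 1 Hz (log2 fold change 0.83), and Gabarap, Lamp1, and Ctsd, with log2 fold changes of 0.098, 0.0181, and 0.15, did not pass, while Psap, which rose at 1 Hz, has no CACGTG in its window. A match of letters is a description of the sequence and not a bound site.

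Other genes of the 2 pathways were read from 6 further lists. Of 31 other core autophagy genes, 5 rose and 9 fell at 1 Hz, 5 rose and 12 fell at 4 Hz, and 1 rose and 1 fell at 10 Hz. Atg4a, a protease that processes Atg8 proteins, was upregulated at all 3 frequencies, from 32.2 ± 4.54 CPM in control to 46.8 ± 6.65, 63.2 ± 9.96, and 47.8 ± 7.6 CPM at 1, 4, and 10 Hz (SD, n = 6 each, log2 fold change 0.54, 0.97, and 0.56 with adjusted p = 0.00138, 1.51e-06, and 0.00739). Atg10, the E2-like enzyme for Atg12, rose from a low 2.64 CPM to 5.52 CPM at 1 Hz (1.07, adjusted p = 0.000271) and 6.74 CPM at 4 Hz (1.34, adjusted p = 1.22e-05). Among 18 other receptors of selective autophagy, 4 rose and 2 fell at 1 Hz and 5 rose and 6 fell at 4 Hz, and 1 fell at 10 Hz. Retreg3, a receptor in the endoplasmic reticulum, was downregulated at 1 Hz (-0.61, adjusted p = 0.000166) and 4 Hz (-0.56, adjusted p = 0.000282). Bag3, a chaperone partner in the autophagy of damaged Z-disk proteins, was downregulated at 4 Hz (-0.59 ± 0.092, adjusted p = 2.4e-05), from 182 ± 3.55 CPM in control to 122 ± 8.3 CPM (SD, n = 6).

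Of 37 other lysosomal hydrolases and their helpers, 34 were tested, and 11 rose and 3 fell at 1 Hz (median 0.19), 8 rose and 6 fell at 4 Hz, and 1 rose at 10 Hz. Arsb, a sulfatase, was upregulated at 1 Hz from 5.01 to 10.7 CPM (1.10, adjusted p = 0.00036), and the collagen-degrading cathepsin Ctsk was downregulated at 1 Hz (-1.53, adjusted p = 0.000916) and 4 Hz (-1.06, adjusted p = 0.00832) from a level of 1.83 CPM. Of 18 other lysosomal membrane proteins, 2 rose and 3 fell at 1 Hz, 2 rose and 5 fell at 4 Hz (median -0.17), and 1 rose at 10 Hz. Ctns, the cystine exporter, and Cln3, a protein lost in Batten disease, were downregulated at 4 Hz (-0.78, adjusted p = 0.000106, and -0.79, adjusted p = 0.00475). Of 17 subunits of the V-ATPase, which acidifies the lysosome, 2 rose and 3 fell at 1 Hz, 4 rose and 3 fell at 4 Hz, and 1 rose at 10 Hz, none beyond the fold threshold. Unadjusted p-values were below 0.05 for 5, 10, and 5 of the 17 at 1, 4, and 10 Hz, and the share of all genes at that level was not computed.

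Of 33 regulators that tie nutrients to the lysosome, 32 were tested, and 9 rose and 4 fell at 1 Hz, 10 rose and 5 fell at 4 Hz, and 3 rose and 1 fell at 10 Hz. Fnip1, a partner of folliculin, which controls Tfeb and Tfe3, was upregulated at 1 Hz (0.67, adjusted p = 0.00242) and 4 Hz (0.54, adjusted p = 0.0101). Sesn2, a leucine sensor, had 50.4 ± 21.6 CPM in control and was downregulated at 4 Hz to 35.6 ± 5.56 CPM (-0.51, adjusted p = 0.0286) and at 10 Hz to 33 ± 4.52 CPM (-0.61, adjusted p = 0.0498; SD, n = 6 each). In the 6 lists as in the 34 genes, the counts stood against a background in which 35.4%, 39.4%, and 4.89% of all genes passed at 1, 4, and 10 Hz. With the fold threshold, 18.3%, 20.1%, and 1.86% of all genes were upregulated or downregulated.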

How the data were processed

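RNA of 24 tissues, 6 per group as given by the sample titles, was sequenced by the authors after poly(A) selection (ribodepletion for low-input samples, not named) as paired-end reads, and processed with nf-core/rnaseq 3.11.1 (STAR and Salmon per the submitters' processing notes) against GRCm39 with its Ensembl annotation. The annotation release and the strand setting of counting are not given in the sources used here, so reads of antisense partners may not be separated. The deposited values were expected counts, estimated by salmon per gene and not normalized. Of all values in a library, those of 0 included, 6.62% to 10.6% were not whole. The authors also deposited a table of TPM, scaled within each library.

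Counts were rounded, filtered with filterByExpr by condition (13318 genes, 99.8% of counts), scaled by TMM, and tested with edgeR 4.0.16 (glmQLFit and glmQLFTest, R 4.3.3), condition being the only factor. The study itself used DESeq2. CPM were computed with TMM library sizes, and SE is the log2 fold change over the root of F. Adjusted p-values are BH values over all genes tested. Total counts of 4.09 to 15.2 M set the counting error, which is included in the spread between libraries. Replicates were compared, and in all 60 pairs within groups counts differed by more than sampling noise.

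Alternatives were DESeq2 size factors, total count scaling, no filter on low counts, a mean of at least 5 CPM, DESeq2 1.42.0, limma 3.58.1 on log2(TPM + pseudocount) with a pseudocount of 1 or 0.1 and a minimum mean of 1 TPM, and with 1 and no minimum (this scale understates the change of low genes), a fit of the 12 libraries concerned, a block for the replicate number, the adjusted p alone, the log2 small RNA share as a covariate, and each library left out in turn. Fits were tested on simulated data.

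The members, the pathway lists, and the marker lists were chosen with earlier results of these data known. Genes given in full are those counted against control, filled up to 6 by smallest adjusted p, and the 5 with the highest mean TPM. From each pathway list the 2 counted genes with the largest log2 fold change against control are named. Coordinates, exons, and sequences came from GRCm39 and GENCODE M39, in which 99.8% of tested genes and all 34 members were found by identifier. The channelrhodopsin transgene was not analysed here.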

Additional observations from a re-analysis of the deposited data

Results flagged for a closer look

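In 148 groups of 6 libraries (each of the 34 genes, both class sums, and the small RNA share in each group), 6 held a library whose distance to the nearest other exceeded the limit of Dixon's test as a share of the group's range, where chance gives about 1 in 20 groups, or 7.4 groups. Atg16l1 was 76.6 CPM in control replicate 6, where the other control libraries held 96.9 to 109 CPM. Sqstm1 was 866 CPM in replicate 3 at 1 Hz, against 989 to 1050 CPM in the others. Ctsl was 2130 CPM in replicate 3 at 10 Hz, against 1300 to 1430 CPM in the others. Gaa was 113 CPM in replicate 6 at 4 Hz, against 66.7 to 81.8 CPM in the others. The 20 autophagosome genes summed to 3055 TPM in replicate 1 at 10 Hz, against 2623 to 2768 TPM in the others. The small RNA share was 51.1 counts per M in replicate 3 at 4 Hz, against 18.3 to 30.2 in the others. Leaving out the libraries concerned changed a call for Ctsl at 10 Hz and for Gaa at 4 Hz, as given above, and not for Sqstm1 at 1 Hz, where the adjusted p stayed between 0.0201 and 0.0477 over the 12 fits that each left out 1 library.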

How the results depend on the processing

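With an adjusted p alone and no fold threshold, the number of autophagosome genes counted was 4, 7, and 2 at 1, 4, and 10 Hz against control (1, 1, and 0 with it) and 2, 9, and 4 for 4 against 1 Hz, 10 against 1 Hz, and 10 against 4 Hz (0, 2, and 1), and the number of lysosome genes was 4, 6, and 2 (2, 1, and 0) and 7, 7, and 3 (0, 2, and 0). With the small RNA share as a covariate the number fell to 0 for autophagosome genes at 1 and 4 Hz against control, 10 against 1 Hz, and 10 against 4 Hz, and to 0 for lysosome genes at 1 Hz against control and 10 against 1 Hz. In that fit the share of all genes counted was 0.00751% at 1 Hz and 1.88% at 4 Hz against control. It was 1.85% for 10 against 1 Hz and 0% for 10 against 4 Hz. Without the covariate these 4 shares were 18.3%, 20.1%, 17.9%, and 11%. The cause was not tested, and the share and stimulation cannot be told apart. Total count scaling gave 2 autophagosome genes at 4 Hz against control and 2 for 10 against 4 Hz. The 3 limma fits on TPM each gave 4 autophagosome genes at 4 Hz against control, 1 for 10 against 1 Hz, and 2 for 10 against 4 Hz, and 4 lysosome genes for 4 against 1 Hz. DESeq2 size factors, DESeq2, and the 12 libraries alone each gave 2 lysosome genes at 4 Hz against control.

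The replicate number as a block gave 2 autophagosome genes counted at 4 Hz against control where 1 was counted without it, and moved no other of these counts by over 1.5 times. The numbers did not pair the libraries, since deviations of same-numbered libraries from their group means correlated with a median r of 0.0173 over 36 pairs (-0.184 to 0.362).

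Leaving out 1 library at a time gave 1 to 1, 1 to 2, and 0 to 0 autophagosome genes at 1, 4, and 10 Hz against control, 0 to 0 for 4 against 1 Hz, 2 to 3 for 10 against 1 Hz, and 1 to 2 for 10 against 4 Hz. For lysosome genes it gave 2 to 2, 1 to 2, and 0 to 0 against control, 0 to 1, 2 to 2, and 0 to 0. Signs changed only for values near 0 among the genes given in full. Psap at 4 Hz was -0.00115 in the 3 limma fits, and at 10 Hz it was 0.0153 with no filter, 0.00815 with a mean of at least 5 CPM, and -0.0548 to 0.0392 with 1 library left out. Nbr1 at 1 Hz was 0.00515 with the covariate and -0.0742 to 0.0314 with 1 library left out. Ctsd at 10 Hz was -0.0185 under total count scaling, -0.0863, -0.0864, and -0.0863 by limma, and -0.039 to 0.0591 with 1 library left out. Ctsb at 4 Hz was -0.046 under total count scaling and -0.0854, -0.0855, and -0.0854 by limma. With 1 library left out at 10 Hz, Gaa was -0.108 to 0.0324, Sqstm1 -0.126 to 0.0124, and Ctsb -0.0436 to 0.0064.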

Other observations

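Wipi2 was looked at in the single libraries at 10 Hz after its values were seen. It held 130, 118, 113, 102, 96.3, and 97.2 CPM in replicates 1 to 6, where the small RNA share was 178, 272, 111, 81.3, 67.3, and 38.4 counts per M, and control held 108 to 123 CPM. The 3 libraries with the highest share were the 3 with the highest Wipi2, as they were for Atg14 and Sqstm1. They were also the 3 with the lowest replicate numbers, and a link to the share was not tested. Npc1 at 10 Hz, in the same order, held 60.3, 63.2, 64.2, 53.5, 59.3, and 62.3 CPM, where the 3 libraries with the highest share were not the 3 with the highest level.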
